A study of Mus musculus with 28 samples.

Results

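The 73 genes described here are the mouse heat shock proteins and DnaJ co-chaperones. They are all protein-coding genes whose symbol starts with Hspa, Hspb, Hspd, Hspe, Hsph, Hsp90, Dnaja, Dnajb or Dnajc, out of 21578 protein-coding genes and 45513 genes listed in all. By symbol, 28 belonged to Dnajc, 13 to Dnajb, 4 to Dnaja, 12 to Hspa, 10 to Hspb, 3 to Hsp90 and 1 each to Hspd, Hspe and Hsph. Hspbp1, Hspbap1 and Hspb11 were taken in by the rule on symbols, although the first is an HSP70 nucleotide exchange factor and none of the 3 is a typical small heat shock protein.

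Ribosome footprints, the mRNA fragments that a ribosome shields from nuclease, and poly(A)-selected total mRNA were sequenced from the same cultures of mouse cells, giving 28 libraries. MN1 cells, a single clonal hybrid of mouse spinal motor neurons and neuroblastoma, had been transiently transfected with GFP, human wild-type TDP-43 (hTDP-43) or its disease mutant hTDP-43 A315T, in 2 cultures each. Primary cortical neurons came from embryos of C57BL/6J mice at embryonic day 16 and were harvested after 14 days in vitro. They carried no transgene (WT, 2 cultures), a hTDP-43 transgene (3 cultures) or a hTDP-43 A315T transgene (3 cultures), with both transgenes driven by the prion protein promoter. Every MN1 culture was exposed to the elongation blocker cycloheximide (100 µg/mL for 3 min) before lysis, whereas the neurons were not. Per the study's methods, the neuronal cultures received cytosine arabinoside (Ara-C) to remove cycling cells, a step not described for MN1 cells. Both treatments, the culture conditions and the preparation therefore went with the cell type and cannot be told apart from it.

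HSP70 proteins (Hspa) bind and release unfolded polypeptides in a cycle of ATP hydrolysis. DnaJ proteins (Dnaja, Dnajb, Dnajc) bring the substrate and trigger the hydrolysis, and HSP110 proteins (Hspa4, Hspa4l, Hsph1) exchange the nucleotide. HSP90 proteins finish the folding of client proteins such as kinases and steroid receptors, HSP60 with its cap HSP10 (Hspd1, Hspe1) folds proteins inside mitochondria, and small heat shock proteins (Hspb) hold unfolding proteins in solution. Neurons are known for a weak heat shock response and for a J protein on synaptic vesicles, cysteine string protein (Dnajc5).

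Between 166064 and 6969578 reads were assigned to genes per library, with the shallowest among the neuronal footprints, where 3 reads in 1 library corresponded to between 1.19 and 18.1 CPM (read counts per library scaled to a common size). Summed markers of cortical neurons (8 genes, among them Map2 and Slc17a7) reached 2560 to 3365 CPM in neuronal total mRNA and 19.9 to 32.6 CPM in MN1 cells. Of the 4 motor neuron markers (Isl1, Mnx1, Chat, Lhx3), all were detected in MN1 cells but summed to only 31.1 to 45.9 CPM in total mRNA, with no library above 1.36 CPM for Mnx1. Cycling markers (Mki67, Top2a, Ccnb1) summed to 239 to 447 CPM in MN1 total mRNA and to 2.37 to 6.44 CPM in neurons. All 5 astrocyte markers were present in neurons (43.4 to 113 CPM in total mRNA), and 3 of 5 in MN1 cells (0 to 2.09 CPM). Oligodendrocyte markers (4 genes) summed to 45.9 to 85.9 CPM in neuronal and 4.99 to 8.61 CPM in MN1 total mRNA, with Mog listed at 0 in MN1 cells, and passed upward in neurons in 4 of 4 cases. Microglial markers (4 genes) reached at most 3.26 CPM in neuronal total mRNA. The part of these other cells in the values below was not tested. Total mRNA of neuronal WT replicate 3 and hTDP-43 replicate 3 stood apart in that Lars2 alone held 261632 and 182464 CPM, against at most 90099 CPM in the other neuronal libraries. Reads on Tardbp, the gene for TDP-43, were more numerous in the 4 MN1 total mRNA libraries transfected with either form of hTDP-43 (317 to 430 CPM) than in both transfected with GFP (217 and 235 CPM).

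The counts rest on uniquely mapped reads, and several of these genes have near-identical copies, so the sequence at their start codons is shown first. The first 28 coding bases, about the length of a footprint, were read from GRCm38.p6, with the start codon in capitals. The coordinates and strands were chr9:40801923-40801950 (+) for Hspa8, chr12:110695653-110695680 (-) for Hsp90aa1, chr17:34971898-34971925 (-) for Hspa1a, chr17:34958980-34959007 (-) for Hspa1b and chr2:34772322-34772349 (+) for Hspa5, each within the first coding exon.
Hspa8: ATGtctaagggacctgcagttggcattg
Hsp90aa1: ATGcctgaggaaacccagacccaagacc
Hspa1a: ATGgccaagaacacggcgatcggcatcg
Hspa1b: ATGgccaagaacacggcgatcggcatcg
Hspa5: ATGatgaagttcactgtggtggcggcgg
The Hspa8 window had 8 exact copies elsewhere in the genome, the Hsp90aa1 window 2, and the Hspa5 window none. The windows of Hspa1a and Hspa1b were identical to each other. Over whole coding sequences, the share of 28-base windows with an exact copy elsewhere was 94.2% in Hspa8, 92.9% in Hsp90aa1, 91.9% in Hspa1a, 89.4% in Hspa1b, 90.8% in Hspb1, 95.6% in Dnaja1, 82.7% in Hspd1, 87.1% in Hspe1 and 64.3% in Dnajb6. These 9 genes were the ones above 50%, while the median over the 73 genes was 0%. Over 20% of the windows were shared in 18 genes, with 26.1% in Hsp90ab1 and 24.4% in Hspa9, and these are understated too. The level of these 9 genes is therefore a floor, and reads of Hspa8 or Hsp90aa1 cannot be compared in height with those of Hspa5 or Hsp90b1, in which no window was shared. Counting did not use strand, and in 5 genes over 20% of the exon bases lay in exons of another gene: Hspa1l, Dnajb8, Dnaja4 (44.1%, with Wdr61), Dnajc14 (36.9%, with Ormdl2) and Dnajc30.

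The heat shock element, the motif bound by heat shock factor 1 (HSF1), was searched as GAANNTTCNNGAA and its reverse complement TTCNNGAANNTTC in RefSeq promoters of GRCm38.p6 (250 bases before to 50 after the start). Promoters were matched for 59 of the 73 genes. The motif was found in 4 of them (6.78%), namely Dnajb6, Hspd1, Hspe1 and Hsph1, against 0.662% of the 27025 symbols with a promoter. The sites are shown because Hspd1 and Hspe1, which lie head to head, hold the same 2 overlapping matches read on opposite strands, of which 1 is printed. Their positions were chr5:29735844-29735872 (+) for Dnajb6, chr1:55088051-55088079 for Hspd1 (-) and Hspe1 (+), and chr5:149636280-149636308 (-) for Hsph1, and the capitals mark the motif.
Dnajb6: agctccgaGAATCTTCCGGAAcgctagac
Hspd1: gccttccgGAAGGTTCTAGAAcggaccgt
Hspe1: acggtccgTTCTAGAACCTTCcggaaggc
Hsph1: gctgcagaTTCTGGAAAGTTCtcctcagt
A match is a description of the letters, and no binding was measured here.

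Together the 73 genes held more of the reads in MN1 cells than in neurons, and more of the footprints than of the total mRNA. Their share of assigned reads in total mRNA was 0.903% ± 0.0546 (SD, n = 6) in MN1 cells and 0.439% ± 0.0613 (SD, n = 8) in neurons. In footprints it was 1.25% ± 0.0846 (SD, n = 6) and 0.698% ± 0.0685 (SD, n = 8). The ranges did not overlap in either library type, being 0.847% to 0.985% against 0.323% to 0.494% in total mRNA and 1.12% to 1.38% against 0.604% to 0.798% in footprints. The lowest neuronal value belonged to WT replicate 3, one of the 2 Lars2-rich libraries. In bulk samples, fewer cells that make an mRNA and less of that mRNA per cell cannot be told apart.

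**Figure D1:**
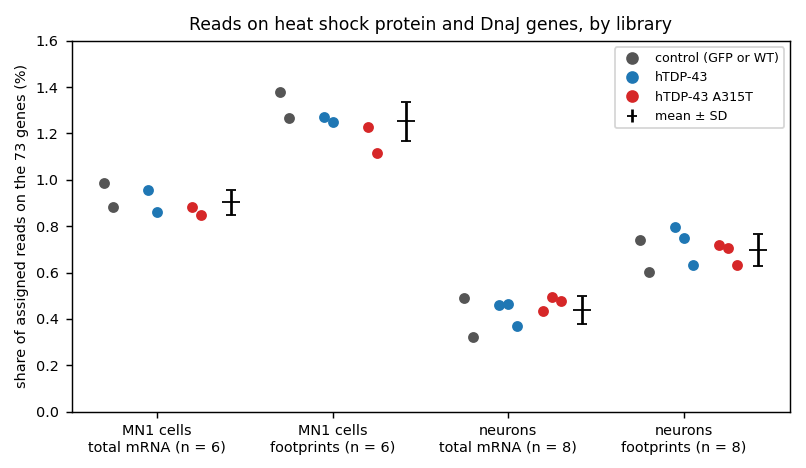
Share of assigned reads on the 73 genes (%) in each of the 28 libraries, by cell type and library type, with colours for the genotype and bars for the mean ± SD. MN1 libraries lie above neuronal libraries of the same type, and footprints above total mRNA within each cell type.

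By subfamily, HSP90 genes held the largest part of these reads in MN1 cells and in neuronal footprints. They took 0.340% ± 0.0202 (SD, n = 6) of total mRNA reads and 0.599% ± 0.0455 of footprints in MN1 cells, and 0.0989% ± 0.0133 (SD, n = 8) and 0.260% ± 0.0318 in neurons. In neuronal total mRNA the Dnajc genes held more, at 0.160% ± 0.0183 (SD, n = 8). Levels per kilobase of exon count uniquely mapped reads only and thus understate the 9 genes with mostly shared windows, so the order below holds for unique reads. Genes with fewer shared windows, such as Hsp90ab1 (26.1%) and Hspa9 (24.4%), are understated to a lesser degree. On that scale the constitutive cytosolic HSP90, Hsp90ab1, stood first in both cell types, with 768 ± 61.9 CPM per kb (SD, n = 6) in MN1 total mRNA and 300 ± 27.4 (SD, n = 8) in neuronal total mRNA. In MN1 cells it was followed by Hspb8 (175 ± 15.8 CPM per kb), a small heat shock protein of the chaperone-assisted autophagy route, and by the chaperones of the endoplasmic reticulum (ER) and mitochondria, Hspa5 (BiP, 124 ± 12.9) and Hspa9 (mortalin, 120 ± 13.4). The SDs of Hspa5 and Hspa9 overlapped. In neurons the next genes were Dnajc5 (103 ± 8.82 CPM per kb), Hspbp1 (92.4 ± 26.0), Hsp90aa1 (43.7 ± 9.34) and Hsph1 (43.0 ± 8.77), of which the first pair and the last pair did not differ beyond their spread. On unique reads, which understate Dnaja1, Hspa8, Hspb1 and Dnajb6, the leading genes per subfamily in MN1 cells and neurons, respectively, were Dnaja2 in both, Dnajb11 and Dnajb5, Dnajc15 and Dnajc5, Hspa5 and Hspa4, and Hspb8 and Hspbp1.

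Near the other end of the range on unique reads stood Hspa1a, Hspa1b and Hspb1, 3 of the 10 genes listed as inducible targets of HSF1. Others of that list, such as Hsp90aa1 and Hsph1, stood among the higher genes in neurons, as given above. Over all libraries of a kind, Hspa1a had 0 reads in MN1 total mRNA and 24 in neuronal total mRNA, Hspa1b had 7 and 28, and Hspb1 had 3 and 6. In each of these 3 genes over 89% of the coding windows were shared with another locus, so these counts do not tell whether the mRNA was scarce. Dnajb8 was the only gene of the 73 with no read in any of the 28 libraries. Total mRNA reads were listed at 0 for 5 genes in MN1 cells and for 2 in neurons, and footprints for 10 and 7.

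**Figure D2:**
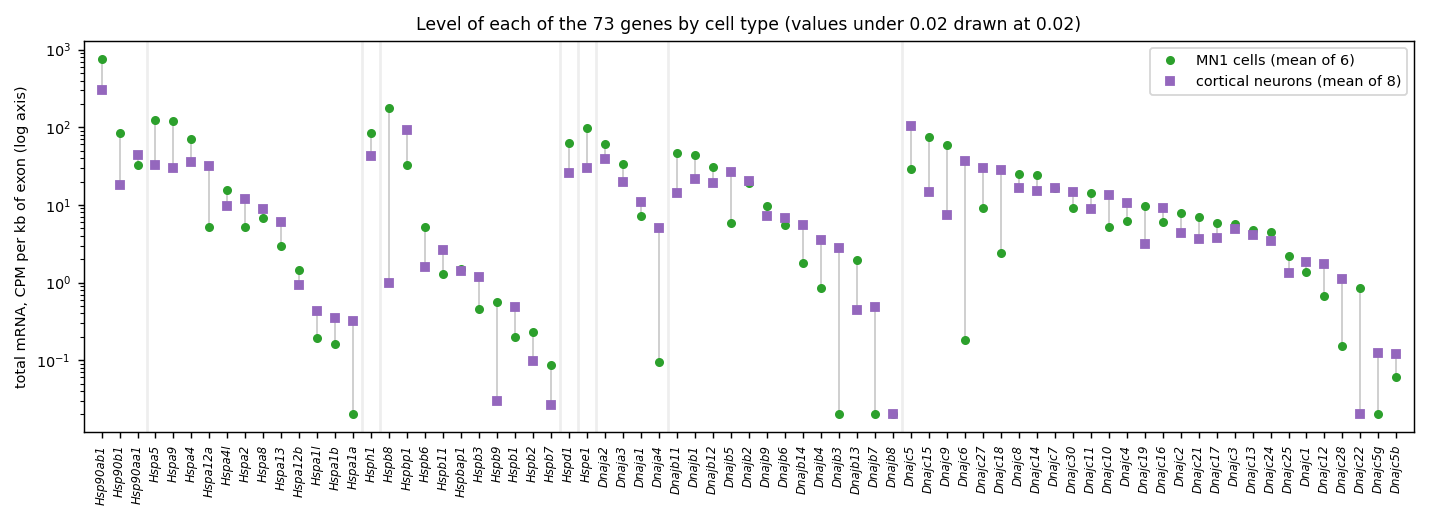
Mean level of each of the 73 genes in total mRNA (CPM per kb of exon, log axis) in MN1 cells (circles, 6 libraries) and cortical neurons (squares, 8 libraries), ordered by subfamily, with genes that had no reads drawn at the lower edge. On unique reads Hsp90ab1 stands highest in both, and the gaps are widest for Hspb8, Dnajc6, Dnaja4, Dnajb3 and Dnajc22.

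Which chaperones distinguished neurons from MN1 cells was asked with the mean of the 3 neuronal groups against the mean of the 3 MN1 groups. In total mRNA, 59 of the 73 genes had enough reads to be tested and 48 passed an adjusted p of 0.05 (edgeR quasi-likelihood test), where 81.0% of all genes tested did. Of the 48, 20 were higher and 28 lower in neurons, against 42.6% of all genes higher and 38.4% lower. In footprints 42 of 53 genes passed, 18 of them higher, where 82.6% of all genes passed, 42.7% higher and 39.9% lower. The median difference over the genes tested was -0.27 (log2) in total mRNA and -0.37 in footprints, beside 0.09 and 0.05 over all genes. A call between these cells was thus the rule in the whole transcriptome, and the sizes and directions are what follows.

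Of the HSP90 genes, 2 of 3 fell in neurons in both library types. The CPM of Hsp90ab1 in total mRNA ran from 2044 through a median of 2303 to 2507 in MN1 cells and from 761 through 918 to 1001 in neurons. These ranges did not overlap, and the log2 difference was -1.42 ± 0.11 (SE, adjusted p = 2.5e-08, edgeR) in total mRNA and -0.99 ± 0.11 in footprints. Hsp90b1 (GRP94), the HSP90 of the ER, ran from 244 through 314 to 484 CPM in MN1 cells and from 53.4 through 71.0 to 98.8 CPM in neurons. It fell by 2.27 ± 0.18 on the log2 scale in total mRNA and by 2.01 ± 0.12 in footprints, again with no overlap. The inducible Hsp90aa1 did not pass (0.39 ± 0.21, adjusted p = 0.096, edgeR), and its ranges of 79.8 to 201 CPM and 112 to 216 CPM overlapped.

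Of the Hspa genes some fell and some rose in neurons. Hspa5, the HSP70 of the ER, ran from 428 through 529 to 582 CPM in MN1 total mRNA and from 123 through 140 to 158 CPM in neurons. It fell by 1.96 ± 0.11 on the log2 scale (adjusted p = 5.3e-10, edgeR), or 3.88-fold, and by 1.30 ± 0.12 in footprints. Hspa9, the mitochondrial HSP70, fell by 2.08 ± 0.12 in total mRNA and by 1.23 ± 0.12 in footprints. Of the other Hspa genes, 3 were higher in neurons. Hspa12a, a distant member of the family that is abundant in brain, ran from 22.4 through 29.6 to 38.2 CPM in MN1 cells and from 150 through 176 to 241 CPM in neurons, a difference of 2.50 ± 0.14 in total mRNA and 3.37 ± 0.15 in footprints. Hspa13, a microsome-associated HSP70, differed by 0.92 ± 0.15 and Hspa2 by 1.07 ± 0.29 in total mRNA. Hspa8, the constitutive cytosolic HSP70, did not pass in total mRNA (0.30 ± 0.19, adjusted p = 0.16, edgeR) and was higher in neuronal footprints (0.69 ± 0.17, adjusted p = 0.0011), on the few windows that map uniquely. All 3 HSP110 genes fell in both library types, by 1.05 ± 0.12 (Hspa4), 0.72 ± 0.16 (Hspa4l) and 1.06 ± 0.15 (Hsph1) on the log2 scale in total mRNA. In footprints the difference of Hspa4l was smaller, at -0.36 ± 0.11. It ran from -0.41 to -0.21 over the alternative fits and, like that of Hsph1, was not called in all of them.

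Of the small heat shock proteins tested, Hspb8 had by far the largest difference. It ran from 311 through 335 to 396 CPM in MN1 total mRNA and from 0 through 1.79 to 4.30 CPM in neurons. It was thus near the detection floor in neurons, with 37 reads over 8 libraries against 4903 over 6, and the fitted difference was -7.76 ± 0.28 in total mRNA (adjusted p = 4.5e-12, edgeR). In footprints the counts were 11 and 1744, a ratio of 306 with an exact 95% binomial interval of 171 to 614 that covers counting error only. Hspb6 fell too, by 1.72 ± 0.24 in total mRNA and 2.52 ± 0.43 in footprints. Hspbp1 was higher in neurons (1.37 ± 0.18 and 1.28 ± 0.11), with 40.2 to 57.9 CPM in MN1 cells and 63.3 to 180 CPM in neurons. Hspb2, Hspb3, Hspb7 and Hspb9 had between 1 and 20 reads in total in each kind of library with any read, and were not tested in either comparison.

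The mitochondrial list moved mostly one way, with 7 of 8 tested genes lower in neurons in total mRNA and 7 of 8 in footprints, and Dnajc28 not tested. Of all genes, 38.4% were lower in total mRNA and 39.9% in footprints. The median of the 8 was -1.55 in total mRNA, beside 0.09 for all genes tested. Hspe1 and Hspd1, which share the promoter site printed above, fell by 1.77 ± 0.13 and 1.36 ± 0.13. Their CPM in total mRNA ran from 120 through 142 to 171 and from 143 through 160 to 199 in MN1 cells, and from 30.3 through 43.5 to 55.4 and from 49.4 through 72.1 to 85.5 in neurons. Dnajc15 and Dnajc19, J proteins of the inner membrane import motor, fell by 2.36 ± 0.24 and 1.74 ± 0.19. Dnaja3 fell by 0.85 ± 0.11 and Dnajc11 by 0.75 ± 0.11. Dnajc30 was the one gene of this list higher in neuronal total mRNA (0.69 ± 0.26, adjusted p = 0.025, edgeR), and 26.2% of its exon bases overlap Bud23.

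In the ER list, 4 of 8 genes fell and 2 rose in neuronal total mRNA, where 38.4% of all genes fell and 42.6% rose. Beside Hspa5 and Hsp90b1, Dnajb11 (ERdj3), which works with BiP, fell by 1.77 ± 0.14, with 124 to 191 CPM in MN1 cells and 30.8 to 56.6 CPM in neurons, and Dnajb9 (ERdj4) fell by 0.51 ± 0.16. Dnajc10 (ERdj5), a disulfide reductase of the ER, was higher in neurons (1.30 ± 0.18), as was Hspa13. Dnajc1 (0.33 ± 0.25) and Dnajc3 (-0.25 ± 0.21) did not pass.

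The genes with the largest excess in neurons were J proteins. Dnajc6 (auxilin), which with Hspa8 strips clathrin from endocytic vesicles, ran from 187 through 214 to 256 CPM in neuronal total mRNA and from 0 through 1.01 to 2.10 CPM in MN1 cells. Over all libraries the counts were 4816 and 16, a ratio of 133 with an exact interval of 81.8 to 233. In footprints they were 2774 and 1, a ratio whose interval ran from 258 to 56807. Dnajc5, the synaptic vesicle J protein, ran from 633 through 724 to 802 CPM in neurons and from 180 through 201 to 220 CPM in MN1 cells, without overlap, and differed by 1.77 ± 0.11 in total mRNA and 1.77 ± 0.12 in footprints. Dnajc13, a J protein of endosomes, did not pass (-0.25 ± 0.19).

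Further J proteins followed the same direction. Dnajc18 differed by 3.49 ± 0.17, Dnajb5 by 2.09 ± 0.17, Dnajb4 by 2.00 ± 0.18, Dnajc27 by 1.67 ± 0.13 and Dnajb14 by 1.61 ± 0.24 in total mRNA, all higher in neurons in footprints too. Dnaja4 had 403 reads in neuronal and 5 in MN1 total mRNA, a ratio of 35.6 with an exact interval of 15.1 to 110, but 44.1% of its exon bases overlap Wdr61. Dnajb3 had 72 total mRNA reads in neurons and none in MN1 cells, which makes it at least 10.6-fold higher against a floor of 3 reads over the 6 MN1 libraries. In the other direction, Dnajc22 had 22 reads in MN1 and none in neuronal total mRNA (at least 16.6-fold higher in MN1 cells). Dnajc9, a J protein and histone chaperone, was 8.21-fold lower in neurons (-3.04 ± 0.15), with 91.1 to 107 CPM in MN1 cells and 8.59 to 16.6 CPM in neurons, alongside the cycling markers given above. All 4 genes of the splicing and nuclear list (Dnajc2, Dnajc8, Dnajc9, Dnajc17) fell in total mRNA and 3 of 4 in footprints, where 38.4% and 39.9% of all genes fell. Among the main cytosolic J proteins, Dnaja2 fell by 0.73 ± 0.15 and Dnajb1 by 1.09 ± 0.13, Dnaja1 was higher (0.57 ± 0.16), and Dnajb2 (0.04 ± 0.14) and Dnajb6 (0.21 ± 0.15) did not pass. Dnajb6 and Dnajb2 did pass in footprints, at 1.22 ± 0.25 and 0.45 ± 0.15.

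Of the 10 genes listed as inducible targets of HSF1, 7 had enough reads, and in each library type 4 fell and 1 rose in neurons (Dnaja1 in total mRNA, Hspa8 in footprints). Of all genes, 38.4% fell and 42.6% rose in total mRNA, and 39.9% and 42.7% in footprints. In groups of controls alone, GFP against WT, 25 of 57 genes passed in total mRNA, where 53.5% of all genes did, and 32 of 50 in footprints, where 70.9% did. Without the 2 neuronal cultures rich in Lars2, an alternative chosen after seeing the data, 50 genes passed in total mRNA and 41 in footprints. With all cultures 48 and 42 passed, where 81.0% and 82.6% of all genes did. The share of all genes without those cultures is not given, so these counts describe the refit only.

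**Figure D3:**
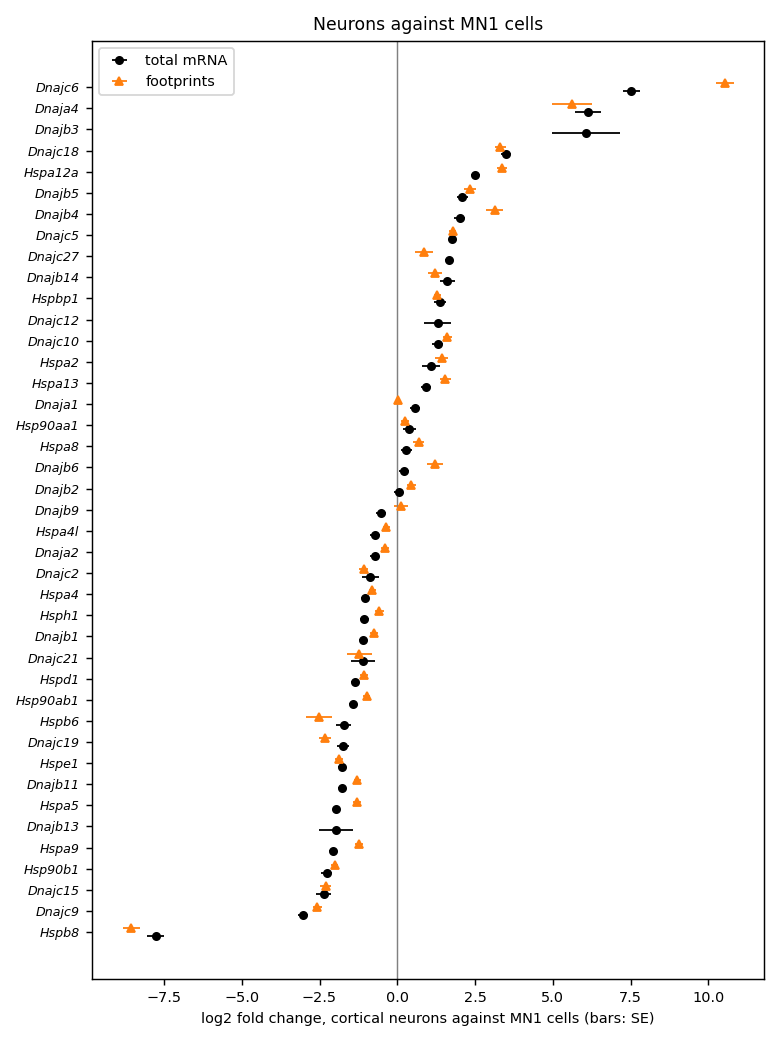
Log2 fold change of the named genes in neurons against MN1 cells, in total mRNA (circles) and footprints (triangles), with bars for the SE (none drawn where p was over 0.9). Dnajc6, Dnaja4 and Dnajb3 lie farthest to the right and Hspb8 farthest to the left, and both library types mostly lie close together for a gene.

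How heavily each mRNA was occupied by ribosomes was asked by setting footprints against total mRNA in all libraries of a cell type, a log2 ratio relative to the average gene. Reads were counted over all exons although footprints lie in the coding sequence, so genes with long untranslated regions start from a lower ratio. Uniquely mapped reads may also understate the footprints of the 9 genes with mostly shared coding windows more than their total mRNA. Among them are Hspa8, Hsp90aa1, Hspd1, Hspe1, Dnaja1 and Dnajb6, and how far this sets their ratios was not tested. The fit did not pair footprints with total mRNA of the same culture. With each culture as a block some calls changed, both ways. For example, the adjusted p (edgeR) of neuronal Dnaja1 went from 0.13 to 0.026 and that of Dnajb4 in MN1 cells from 0.044 to 0.052. In MN1 cells 35 of 53 genes tested passed, 25 higher in footprints, where 60.1% of all genes passed, 29.0% higher and 31.2% lower. In neurons 32 of 53 passed, 24 higher, where 58.2% passed, 26.3% higher and 31.9% lower. The median ratio of the genes tested was 0.27 in MN1 cells and 0.42 in neurons, beside -0.04 and -0.06 over all genes. The 50 genes tested in both cell types had ratios of the same sign in 41 cases, with a Pearson r of 0.849 and a Spearman rho of 0.825 across genes, which share gene length and coding share and are not independent replicates.

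The HSP90, HSP70 and HSP110 genes mostly stood on the high side. All 3 HSP90 genes passed upward in both cell types. Hsp90b1 had the highest ratio of the 53 genes tested in each, at 1.70 ± 0.13 in MN1 cells (adjusted p = 1.7e-08, edgeR) and 1.92 ± 0.14 in neurons. In MN1 cells its footprints ran from 892 through 1076 to 1242 CPM against 244 to 484 CPM in total mRNA, and in neurons from 195 through 263 to 405 CPM against 53.4 to 98.8 CPM. Hsp90aa1 stood at 1.35 ± 0.17 and 1.17 ± 0.15 and Hsp90ab1 at 0.89 ± 0.08 and 1.28 ± 0.10. In the Hspa subfamily 7 of 8 tested genes passed upward in each cell type. Hspa5 stood at 1.19 ± 0.08 in MN1 cells and 1.79 ± 0.12 in neurons, Hspa8 at 1.34 ± 0.16 and 1.69 ± 0.17, Hspa2 at 1.06 ± 0.30 and 1.36 ± 0.19 and Hspa9 at 0.45 ± 0.09 and 1.24 ± 0.10. The 3 HSP110 genes all passed upward, between 0.69 and 0.90 in MN1 cells and between 0.98 and 1.23 in neurons. Hspd1 passed (0.52 ± 0.11 and 0.70 ± 0.13), whereas its neighbour Hspe1 did not (0.06 ± 0.09 and -0.13 ± 0.16). Both have mostly shared coding windows, so their ratios carry the limit given above. Hspb8 did not pass in MN1 cells (0.14 ± 0.08) and was not tested in neurons.

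The J proteins were mixed. Of 9 Dnajb genes tested in MN1 cells 1 passed upward (Dnajb11) and 5 downward, and in neurons 3 passed each way. Of the Dnajc genes, 8 of 22 passed upward and 4 downward in MN1 cells, and 6 of 23 upward and 5 downward in neurons. Of all genes, 29.0% passed upward and 31.2% downward in MN1 cells, and 26.3% and 31.9% in neurons. Dnajc27, a small GTPase with a J domain, had the lowest ratio of the 53 genes tested in each cell type, at -1.43 ± 0.19 and -2.33 ± 0.18, with 125 through 137 to 177 CPM in neuronal total mRNA but 12.0 through 23.2 to 49.4 CPM in footprints. Dnajc14 (-1.27 ± 0.15 and -1.43 ± 0.15) and Dnajc5 (-1.04 ± 0.09 and -1.11 ± 0.09) were low in both. Dnajc5 has 567 coding windows beside 6953 exon bases counted, and how far that sets its low ratio was not tested. Dnajc15 was high in both (1.12 ± 0.11 and 1.10 ± 0.27), and Dnajc6, tested in neurons alone, stood at 0.70 ± 0.09.

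**Figure D4:**
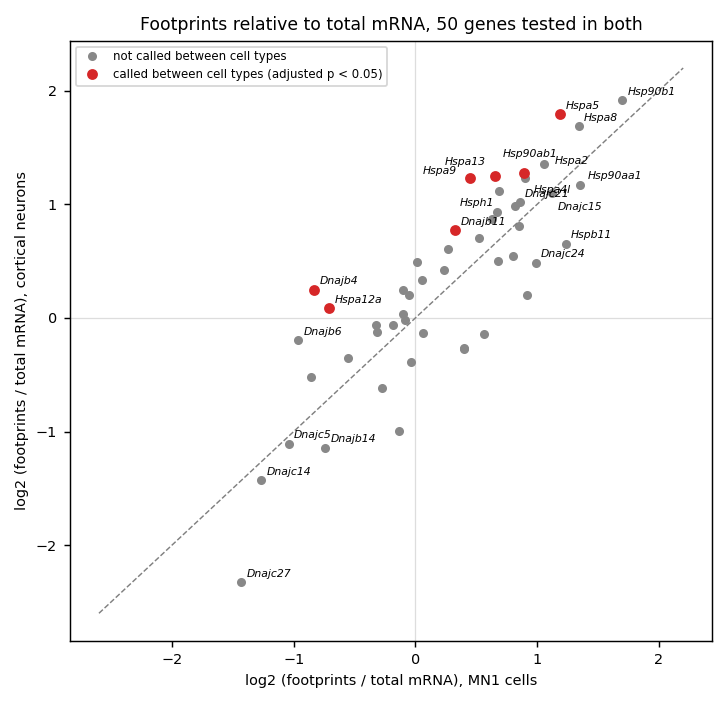
Log2 ratio of footprints to total mRNA for the 50 genes tested in both cell types, in MN1 cells (x axis) and cortical neurons (y axis), with the line of equal ratios dashed and genes that differ between the cell types (adjusted p under 0.05) in red. Hsp90b1, Hspa5 and Hspa8 lie at the upper right, Dnajc27 at the lower left, and the red genes lie above the line.

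Whether the ratio differed between the cell types was tested as an interaction over all 28 libraries. Of 57 genes tested, 9 passed (8 higher in neurons), where 9.90% of all genes passed, 6.88% higher and 3.02% lower. Under this scaling the median of all genes was itself 0.16, and with size factors of the DESeq2 type (RLE) it was -0.03. Of all calls, 830 were higher and 365 lower in the first case and 294 and 569 in the second. The differences below are therefore given relative to the median of 0.16, on the log2 scale. Hspa9 differed by 0.79 (before that subtraction 0.95 ± 0.15, adjusted p = 1.3e-04, edgeR) and Hspa5 by 0.60 (0.76 ± 0.16, adjusted p = 0.0025). Hspa12a differed by 0.80 (0.96 ± 0.21, adjusted p = 0.0038), since its ratio was -0.71 ± 0.19 in MN1 cells and 0.08 ± 0.11 in neurons. These 3 passed with RLE size factors too (adjusted p = 0.0014, 0.025 and 0.028). Dnajb4 (1.07), Hspa13 (0.59), Dnajb11 (0.44) and Hsp90ab1 (0.38) passed in the first case and not with RLE size factors, where their adjusted p ran from 0.070 to 0.15. Dnajc6 (2.80) and Hspa12b (-3.52) passed in both, but the first rests on 1 footprint read in MN1 cells and the second on 2 in neurons. The count of 9 fell to 2 when MN1 GFP replicate 1, MN1 hTDP-43 replicate 1 or neuronal hTDP-43 replicate 1 was left out, and rose to 15 of 57 with each culture as a block, where 14.7% of all genes passed, 10.3% higher and 4.39% lower. Only Hspa9 and Hspa12b passed in every alternative in which they were tested (19 and 16).

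Whether hTDP-43 or hTDP-43 A315T changed the chaperones was asked in 12 comparisons, 3 pairs of groups in each cell type and library type. None of the 42 to 58 genes tested passed in any of them with edgeR, and none passed with DESeq2. Of all genes, 0.0115% passed in MN1 footprints (hTDP-43 A315T against GFP), 0.00965% and 0.0100% in MN1 total mRNA (hTDP-43 A315T and hTDP-43 against GFP) and none in the other 9 comparisons. Between 0 and 7 of the genes tested had an unadjusted p under 0.05 (edgeR). The 6 tests of the ratio of footprints to total mRNA between genotypes called none with either tool, with 0 to 3 genes at an unadjusted p under 0.05. The share of all genes under that unadjusted p is not given, so nothing is read from these counts. The median log2 difference over the genes tested stayed between -0.07 and 0.06 in the 12 comparisons. With 2 or 3 cultures a group, a p that misses the threshold does not show that the levels were equal.

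When the replicate number was a term of the model (a replicate block), 3 genes fell in MN1 total mRNA under hTDP-43 A315T against GFP, where 2.73% of all genes passed and 1.68% fell. Hsp90aa1 had 201 and 114 CPM in GFP replicates 1 and 2 and 104 and 93.8 CPM in hTDP-43 A315T. Both pairs were lower with the mutant, by 0.95 and 0.29 on the log2 scale, and the blocked fit gave -0.79 ± 0.13 (adjusted p = 8.1e-04, edgeR). The hTDP-43 libraries had 188 and 79.8 CPM, so that replicate 1 lay near GFP and replicate 2 below both. Hsp90b1 had 484 and 303 CPM in GFP, 445 and 244 CPM in hTDP-43 and 325 and 257 CPM in hTDP-43 A315T, a blocked difference between mutant and GFP of -0.55 ± 0.10 (adjusted p = 0.0018, edgeR). Hspe1 had 171 and 155 CPM in GFP, 147 and 131 CPM in hTDP-43 and 138 and 120 CPM in hTDP-43 A315T, with a difference of -0.47 ± 0.10 (adjusted p = 0.0099, edgeR). The GFP and mutant libraries overlapped for Hsp90b1 and not for Hsp90aa1 or Hspe1. Without the block the same differences were -0.80 ± 0.25, -0.57 ± 0.22 and -0.46 ± 0.14, each with an adjusted p of 0.85 (edgeR). In footprints of the same comparison, the blocked fit called none of the 48 genes, where 0.624% of all genes passed, and Hspe1 had 148 and 162 CPM in GFP against 131 and 110 CPM. Hsp90aa1 and Hspe1 are among the genes whose coding windows are mostly shared with other loci, and Hsp90aa1 and Hsp90b1 are among those that differed between replicate numbers, as described next. Leaving out GFP replicate 2 without a block gave -1.20 for Hsp90aa1 and -0.91 for Hsp90b1. That fit set GFP replicate 1 alone against mutant libraries of both numbers, so it mixed the replicate number with the genotype.

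The replicate numbers of MN1 cells go with 2 dates in the titles, which do not say which step was dated, and were compared within genotype. In MN1 total mRNA, replicate 2 against replicate 1 within genotype called 11 of 53 genes, where 14.9% of all genes passed, and 9 of the 11 were lower in replicate 2, against 8.52% of all genes lower and 6.42% higher. Hsp90b1 was lower by 0.59 ± 0.09 (adjusted p = 3.1e-04, edgeR), Hsp90aa1 by 0.70 ± 0.13, Dnajc2 by 0.81 ± 0.16 and Hsph1 by 0.46 ± 0.07. Hsph1 had 326, 338 and 371 CPM in the 3 replicates numbered 1 and 245, 219 and 266 CPM in those numbered 2, with no overlap. Dnajc13, Dnaja1, Dnaja2, Hspd1 and Hspa4 were lower by 0.31 to 0.53. Hspa2 was higher in replicate 2 (1.10 ± 0.26), as was Dnajc14 (0.33 ± 0.09). In footprints 2 of 49 genes passed, where 4.73% of all genes did (2.64% higher and 2.10% lower), namely Hsph1 (-0.51 ± 0.10) and Dnaja1 (-0.61 ± 0.16). With genotype left out of that fit Hsph1 alone passed, and with DESeq2 none did. Of the inducible list, 4 of 7 genes tested were lower in replicate 2 in total mRNA and 2 of 7 in footprints.

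In neurons the one blocked call was Dnajc21, a J protein of ribosome assembly, which is in the study's own list of genes called in these footprints, so its direction here is not independent evidence. Its footprints in hTDP-43 A315T were 130, 36.9 and 7.62 CPM in replicates 1, 2 and 3 (261, 18 and 7 reads), and in hTDP-43 they were 30.5, 4.60 and 0 CPM (58, 1 and 0 reads). Each mutant library lay above the hTDP-43 library of the same number, but the groups overlapped. The blocked difference was 2.17 ± 0.25 (adjusted p = 1.7e-04, edgeR), where 0.179% of all genes passed, and without the block it was 1.56 ± 0.69 with an adjusted p of 1.00. With no low-count filter, however, Dnajc21 passed without a block in footprints against hTDP-43 (1.54, adjusted p = 1.6e-04, edgeR) and against WT (2.38, adjusted p = 1.1e-09), and in the ratio of footprints to total mRNA against both. WT footprints were 11.5 and 12.6 CPM (14 and 7 reads) in replicates 2 and 3, the second above the mutant library of that number. In total mRNA, Dnajc21 had 12.7, 8.67 and 8.19 CPM in hTDP-43 A315T, 14.8, 7.63 and 32.2 CPM in hTDP-43 and 5.34 and 48.5 CPM in WT. The 2 highest values were those of the Lars2-rich libraries. Without hTDP-43 A315T replicate 1, the difference in footprints against hTDP-43 was -0.05 without a block, without hTDP-43 replicate 1 it was 4.23, and without replicate 1 of both groups too few reads remained for Dnajc21 to be tested. None of its coding windows was shared with another locus.

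**Figure D5:**
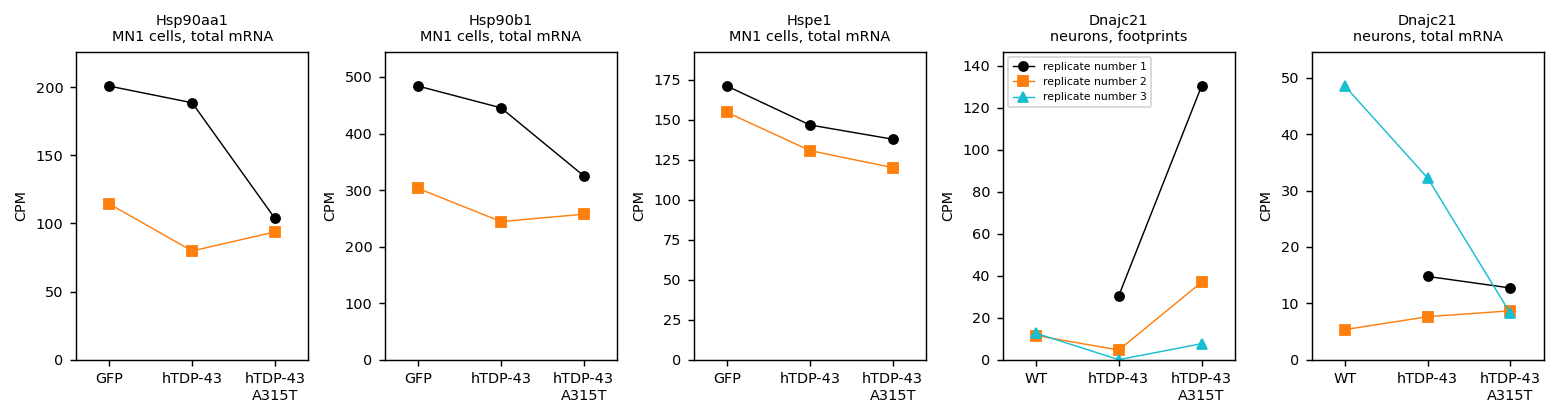
CPM in each library of the 4 genes called in a blocked genotype comparison, with lines joining libraries of the same replicate number. In MN1 total mRNA both lines for Hsp90aa1, Hsp90b1 and Hspe1 end below their GFP start, and in neurons the Dnajc21 footprints rise mainly in replicate 1.

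The ER stress J protein Dnajb9 had the smallest unadjusted p in MN1 footprints against GFP (-1.24 ± 0.49) and against hTDP-43 (-1.51 ± 0.54), at adjusted p values of 1.00 in both (edgeR). Its footprints were 12.3 and 3.49 CPM in hTDP-43 A315T (15 and 2 reads), 24.7 and 18.9 CPM in GFP and 22.8 and 29.9 CPM in hTDP-43, so the mutant libraries lay below the others on few reads. Dnajc19 had the smallest unadjusted p in MN1 total mRNA between hTDP-43 A315T and hTDP-43 (-0.80 ± 0.22, adjusted p = 1.00, edgeR), at 32.3 and 26.7 CPM against 43.2 and 49.3 CPM.

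Of 35 other genes of the pathway, among them heat shock factors, BAG and HSP90 co-chaperones and the CCT chaperonin, 34 were found in the files. Between neurons and MN1 cells 26 of 34 tested fell and 5 rose in total mRNA, where 38.4% of all genes fell and 42.6% rose, and 25 of 33 fell and 3 rose in footprints, where 39.9% fell and 42.7% rose. The largest changes in total mRNA were in Bag3 (-5.47 ± 0.19), the partner of Hspb8 in chaperone-assisted autophagy, the small heat shock protein Cryab (3.49 ± 0.59) and the HSP90 co-chaperone Fkbp4 (-2.72 ± 0.15). In footprints against total mRNA 22 of 33 passed upward and 7 downward in MN1 cells, and 17 and 5 in neurons (beside 29.0% and 31.2% of all genes in MN1 cells and 26.3% and 31.9% in neurons), led there by Cct8 (1.37 ± 0.11), Cct4 (1.27 ± 0.11) and Cct3 (1.24 ± 0.11). The ratio differed between cell types in 11 of 34, 10 of them higher in neurons, where 9.90% of all genes passed. No gene of this list passed in any genotype comparison without the block. With it Bag5 passed (0.92 ± 0.17, adjusted p = 3.6e-04, edgeR) in MN1 footprints of hTDP-43 against GFP, where 0.156% of all genes did (0.108% higher and 0.0480% lower). Between replicate numbers of MN1 cells, 4 of 33 passed in total mRNA and 2 of 33 in footprints, beside the 14.9% and 4.73% of all genes given above, and in footprints Bag5 was higher in replicate 2 by 3.97 ± 0.18.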

How the data were processed

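Total mRNA and ribosome footprint libraries of 6 MN1 and 8 neuronal cultures were analysed, 28 in all. Per the labels and the study's methods, the authors trimmed reads with cutadapt 1.8.1, removed non-coding RNA with Bowtie2, aligned the rest to GRCm38 with TopHat2 and counted uniquely mapped reads on exons of Ensembl genes with featureCounts 1.4.4. Per the file headers no strand option was set. The deposited values are raw counts per gene, between 166064 and 6969578 per library, which limits precision in the shallow footprint libraries. No 2 libraries were identical. PCR reads without molecular identifiers are not independent molecules, so intervals and floors (3 counts) cover counting error only.

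Gene symbols and types came from GENCODE M21. Counts were tested with edgeR 4.0.16 (R 4.3.3; quasi-likelihood test, TMM, filterByExpr with a minimum count of 10 and a total of 15), Benjamini-Hochberg adjusted over all genes tested, at 0.05. SEs were derived from the log2 fold change and its F statistic. CPM used TMM within each library type. Alternatives were DESeq2 1.42.0, RLE size factors, no filter, a replicate block, all 3 groups in a fit, control groups alone and leaving out each culture. The fits were tested on simulated data first.

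The titles carry a date, of a step they do not name, that goes with the replicate number, so equal numbers were taken as a shared day. In 1 MN1 GFP footprint title of replicate 1 the year differs from the others, and the same day was assumed. Deviations from group means of equal numbers correlated at 0.336 (mean r, MN1 footprints), 0.442 (MN1 total mRNA), 0.120 (neuronal footprints) and 0.171 (neuronal total mRNA), and in groups of 2 these values are partly fixed by the centring. Neuronal pairs of equal number ran from 0.0293 to 0.248 in footprints and from -0.175 to 0.520 in total mRNA. Pairs of unequal number ran from -0.222 to 0.116 and from -0.520 to 0.343. These ranges overlapped, so a shared day in neurons rests mainly on the titles. WT has no replicate 1, so a blocked fit against WT draws on replicates 2 and 3. Between neurons and MN1 cells equal numbers mark different days. Nothing beyond separate culture labels says how independent the cultures were.

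The genes, lists and tests were chosen with earlier results of these data known. In each comparison the genes named were up to 12 with the largest change in each direction among those past the threshold, the 3 with the smallest p where fewer than 3 passed, the highest gene of each subfamily and 25 fixed genes. Other genes, such as Dnajc22 and Hspa12b, were chosen after their values were seen.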

Additional observations from a re-analysis of the deposited data

Results flagged for a closer look

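In 9 genes the ratio of footprints to total mRNA differed between neurons and MN1 cells by the interaction test (log2, before subtracting the all-gene median of 0.16). It was higher in neurons for Dnajc6 (2.96), Dnajb4 (1.23), Hspa12a (0.956), Hspa9 (0.949), Hspa5 (0.764), Hspa13 (0.747), Dnajb11 (0.595) and Hsp90ab1 (0.544), and lower for Hspa12b (-3.36). The exposure of MN1 cells alone to cycloheximide goes with this contrast and cannot be told apart from the cell type.

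Libraries far from the others were looked for within each cell type and kind of library, all genotypes together, in the summed share and in the named genes with at least 10 reads in each library, which gave 93 sets, of which chance would mark about 1 in 20. The gap test marked 3. Hspa12a reached 7.91 (log2 CPM) in total mRNA of neuronal hTDP-43 replicate 3. Dnajb6 was lowest, at 4.52, in total mRNA of neuronal WT replicate 3. Both are the Lars2-rich libraries. Hspa8 footprints were lowest in MN1 hTDP-43 A315T replicate 2, at 5.20.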

How the results depend on the processing

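Blocking on the replicate number raised the genes called from 0 to 3 (MN1 total mRNA, hTDP-43 A315T against GFP) and from 0 to 1 (neuronal footprints, hTDP-43 A315T against hTDP-43). With each culture as a block they rose from 9 to 15 (ratio between cell types), and a block changed the count by more than 1.5 times in no other comparison. Without replicate 1 of both groups, an alternative added after seeing the data, the blocked neuronal count was 0. With no low-count filter 1 gene was called in each of 6 comparisons of hTDP-43 A315T: Hsp90aa1 in MN1 total mRNA against GFP, and Dnajc21 in neuronal total mRNA and footprints against WT, neuronal footprints against hTDP-43, and the neuronal ratio against WT and against hTDP-43. Control groups alone gave 25 genes in place of 48 in total mRNA between neurons and MN1 cells, a fit with 2 libraries a group. For the title dates of MN1 cells, DESeq2 gave 3 genes in total mRNA and 0 in footprints, and leaving genotype out of the fit gave 6 and 1, against 11 and 2. The share of all genes is not given for fits with DESeq2, without the filter, without genotype or without a culture (below). Their counts therefore describe the refits only and do not tell whether calls over all genes moved alike.

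Leaving out 1 culture at a time gave counts of 1 to 5 (MN1 title dates, footprints), 8 to 15 (MN1 title dates, total mRNA), 2 to 13 (ratio between cell types), 45 to 50 and 36 to 43 (neurons against MN1 cells, total mRNA and footprints), 30 to 35 and 27 to 34 (footprints against total mRNA, MN1 cells and neurons), 0 to 2 (MN1 total mRNA, hTDP-43 A315T against GFP), 0 to 3 (the same against hTDP-43) and 0 to 3 (neuronal total mRNA, hTDP-43 A315T against WT), and 0 in the other genotype comparisons. The 3 highest of these genotype counts arose without GFP replicate 2, hTDP-43 replicate 2 and WT replicate 2, where a lone library is assumed to vary like the other group.

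Taken over protein-coding reads alone, the summed share was 1.36% of footprints and 0.961% of total mRNA in MN1 cells. Without Hspa8, Hsp90ab1 and Hsp90aa1 it was 0.762% and 0.602% in MN1 cells and 0.452% and 0.343% in neurons (footprints and total mRNA). No fold change of a named gene that was called without a block changed its sign under any alternative run, whereas Dnajc21 in neuronal footprints against hTDP-43, called with the block, went to -0.05 in the unblocked fit without hTDP-43 A315T replicate 1. The cause of these shifts was not tested, and depth limits the genes with few footprints.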
